A study of Macaca mulatta with 6 samples.

Results

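The sites described here are the CCGG sites of sperm DNA from the rhesus macaque, Macaca mulatta, on chromosomes 1 to 20, with the 2 signals that the authors' table gives first at each site. All 1254904 autosomal sites of the 1297392 sites in the sperm table were taken, out of 1406954 distinct sites in the tables of both cell types. No site lacked a signal and no position was listed more than 1 time. Each site was summarised by a contrast d, the first signal minus the second divided by their sum. A d of 0 means equal signals, and a d of 0.5 means that the first signal was 3 times the second.

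The study profiled sperm and haploid embryonic stem cells (ESC) with HMST-Seq. Its title describes the haploid ESC as parthenogenetic, that is, from an egg and without a paternal genome. The labels give no treatment, age, strain or number of animals for either cell type. For each of the 2 cell types there were 3 digests, called HpaII, BGT_MspI and MspI in the labels, and 1 library of each, 6 libraries in all. With 1 library per digest no value below has a replicate error and no difference was tested, and the intervals given cover counting error over sites only. Neighbouring sites are not independent, which those intervals do not allow for. The tables hold DNA sites and no expression, so the labelled cell types could not be checked against marker genes.

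HMST-Seq sequences short tags next to CCGG sites that an enzyme has cut. HpaII cuts a site whose cytosines carry no modification. MspI cuts the same sequence whether or not its inner cytosine is methylated, and the glucosyltransferase named by BGT places a sugar on 5-hydroxymethylcytosine, which keeps MspI from cutting there. In mammals the DNA of mature sperm is methylated over most of its length, while many dense groups of CpG sites, the CpG islands, are left unmethylated.

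The table has no column names, and nothing in it ties a signal to a digest. The table holds a second pair of signals at each site, and the first value of that pair was identical to the second value of the first pair at 100% of sites, in both cell types. The 2 pairs thus share 1 signal, and the table holds 3 distinct signals, called the first, the second (shared) and the third signal here. The second and the third signal followed each other closely over sites, with a Spearman's rho of 0.929 and a Pearson's r of 0.963. The first signal stood apart from both, with a Spearman's rho of 0.268 against the second and 0.275 against the third. These are descriptions over 1254904 sites measured in the same libraries. Which digest each signal comes from was not settled by these measurements, so d is given as a contrast of signals and not as a level of 5mC or 5hmC.

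The first signal of sperm had a median of 15.5 on the authors' scale, with quartiles of 8.99 and 32.8 and a range from 2.54 to 4176. The second signal had nearly the same middle, with a median of 16.3, quartiles of 8.84 and 30.0, and a range from 0.592 to 3756. The upper tail of the first signal was heavier. Its 95th percentile was 145 against 86.7 for the second and 85.3 for the third signal.

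The first signal had a second group of sites at high values. Its distribution on a log2 scale fell to a low point near 64 and rose again above it, and the second and the third signal had no such second rise. A first signal of 64 or more, a limit chosen after the values were seen, was found at 189060 sites, 15.1% (95% Wilson interval 15.0% to 15.1%). The second signal reached 64 at 8.25% of sites and the third signal at 8.09%. In haploid ESC the first signal reached 64 at 9.75% of autosomal sites and the second at 4.31%. The haploid ESC first signal fell steadily beyond 64 with no second rise, so this limit is one taken from sperm.

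Sites of the high group were chosen by their first signal, so their high median of 124 in it follows from the rule. Their median second signal was 21.1 and the third signal had a median of 21.3, above the 15.7 of both at the remaining sites. Their median d was 0.691 with quartiles of 0.453 and 0.825, a description, since the first signal chose them. Of these sites 69.4% had another listed site within 500 bp, against 47.4% of the sites with a first signal below 64. A smaller group of 34467 sites, 2.75% of all, reached 64 in both the first and the second signal, with medians of 154 and 109.

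**Figure D1:**
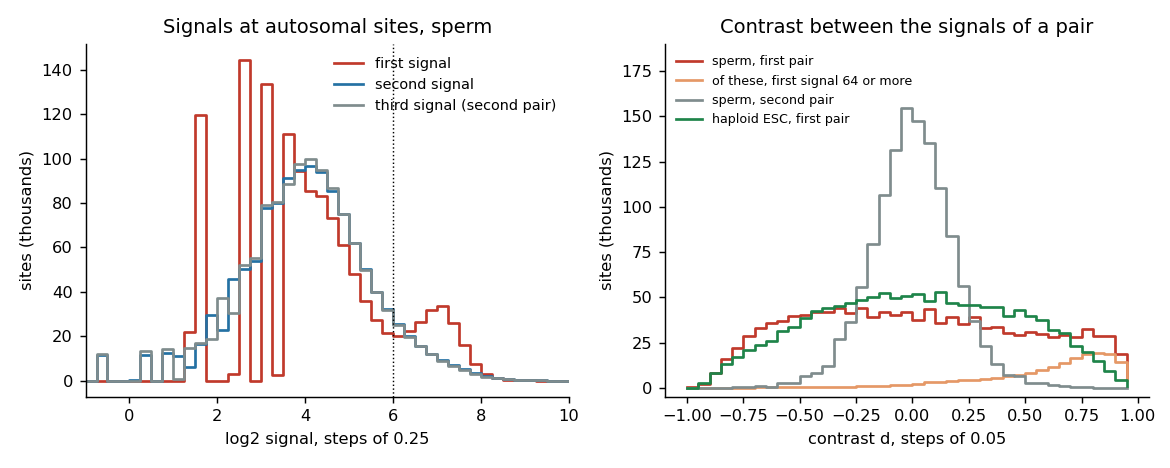
Left, the number of autosomal sperm sites by log2 signal for the first, the second and the third signal, with a dotted line at a signal of 64. Right, the number of sites by contrast d for the first pair of sperm, those of its sites with a first signal of 64 or more, the second pair of sperm and the first pair of haploid ESC. The first signal alone has a second rise above 64, and d of the second pair is much narrower than d of the first.

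Low values of each signal lay in narrow bands with empty stretches between them. The lowest band of the first signal ran from 2.54 to 3.11 and held 11.3% of sites, the next from 5.47 to 6.22 held 11.8%, and the one after it from 7.99 to 9.32 held 10.7%. The lowest band of the second signal ran from 0.592 to 0.690 and held 0.929% of sites. Its next bands ran from 1.13 to 1.30 and from 1.65 to 1.89, so they lay closer together than those of the first signal. Low first signals therefore fell into few bands, and values within a band still differed from each other. Where the first signal was low, d thus rested on a coarser first than second signal. The read depth behind the values is unknown.

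Over all autosomal sites the contrast was centred close to 0 and spread widely. The median d was -0.0126 (95% interval -0.0139 to -0.0116), the quartiles were -0.388 and 0.407, and the 5th and 95th percentiles were -0.724 and 0.830. The first signal was more than 3 times the second (d above 0.5) at 259398 sites, 20.7%. The second was more than 3 times the first (d below -0.5) at 222442 sites, 17.7%. Only 25.5% of sites had a d between -0.2 and 0.2. The extremes were not alike, with 6.44% of sites above 0.8 and 2.11% below -0.8. The lowest first signal, 2.54, was above the lowest second signal, 0.592. The second signal therefore had to reach a higher value for a d below -0.8 than the first for a d above 0.8. How far this made the shares differ was not tested. A d of exactly 1 or -1 needs 1 signal at 0, and no listed signal was 0, so neither could occur. Whether sites with a signal of 0 had been left out by the authors is unknown. The shares of d therefore hold for the listed sites and not for all CCGG sites.

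The position of 0 rests on how the authors scaled the signals. The first signals summed to 1.26 times the second signals. With both scaled to equal sums the median d was -0.128, d exceeded 0.5 at 16.8% of sites and fell below -0.5 at 23.7%, so the larger of the 2 tails changed. Differences in d between classes of sites are given below in preference to its sign for that reason.

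The second pair of sperm signals, the second against the third, had a far narrower contrast. Its median contrast was 0.000927 with quartiles of -0.111 and 0.113. It exceeded 0.5 at 0.698% of sites and fell below -0.5 at 0.638%, and 75.6% of sites lay within 0.2 of 0. The interquartile range was 0.224, against 0.795 for the first pair.

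The contrast of the first pair was similar at most sites when the third signal took the place of the second. The 2 versions of d had a Spearman's rho of 0.954 over sites and share the first signal. Their median absolute difference was 0.0803, and 95% of sites differed by less than 0.299. Over all sites 14.9% differed by more than 0.2, and 91.0% kept the sign of d. Of the sites with d above 0.5, 84.7% stayed above 0.5 with the third signal and 99.7% stayed above 0. Of those below -0.5, 82.4% stayed below it and 99.9% stayed below 0.

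The contrast varied with the total of the 2 signals. Sites were divided by total into 10 classes of equal size. In the lowest 8 classes the median d lay between -0.111 and -0.0257. In the highest 2 it was 0.459 and 0.480, with median first signals of 76.6 and 145 and median second signals of 31.0 and 51.0. The total contains the first signal, so these classes are not independent of it. The median difference between the 2 versions of d fell from 0.148 in the lowest class to 0.0519 in the highest. Both versions share the first signal, so this does not show how steady d was.

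The contrast also varied with the distance to the nearest other listed site. Median d was highest at sites 200 to 500 bp from their nearest neighbour, 0.123 (345024 sites, quartiles -0.269 and 0.528), where each class leaves out its upper bound. It was 0.0687 at 500 to 1000 bp, -0.205 at 1000 to 5000 bp (334408 sites) and -0.436 at 5000 bp and more (30283 sites, quartiles -0.669 and -0.0343). Closer than 200 bp it lay between 0.0130 and 0.0503. At the most isolated sites 43.8% had d below -0.5 and 9.73% above 0.5, beside 17.7% and 20.7% of all sites.

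The fall at isolated sites was in the second signal more than in the first. The median second signal went from 12.9 at 500 to 1000 bp to 19.5 at 1000 to 5000 bp and 33.8 at 5000 bp and more. The third signal, not used in d but following the second over sites, went from 13.2 to 19.1 and 31.8 over the same classes. The median first signal was 15.1, 14.2 and 14.3 there, a change of less than 1. The high group of the first signal was thinner among isolated sites, at 7.48% for 1000 to 5000 bp and 8.40% beyond, against 24.2% of sites 50 to 100 bp from their neighbour.

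**Figure D2:**
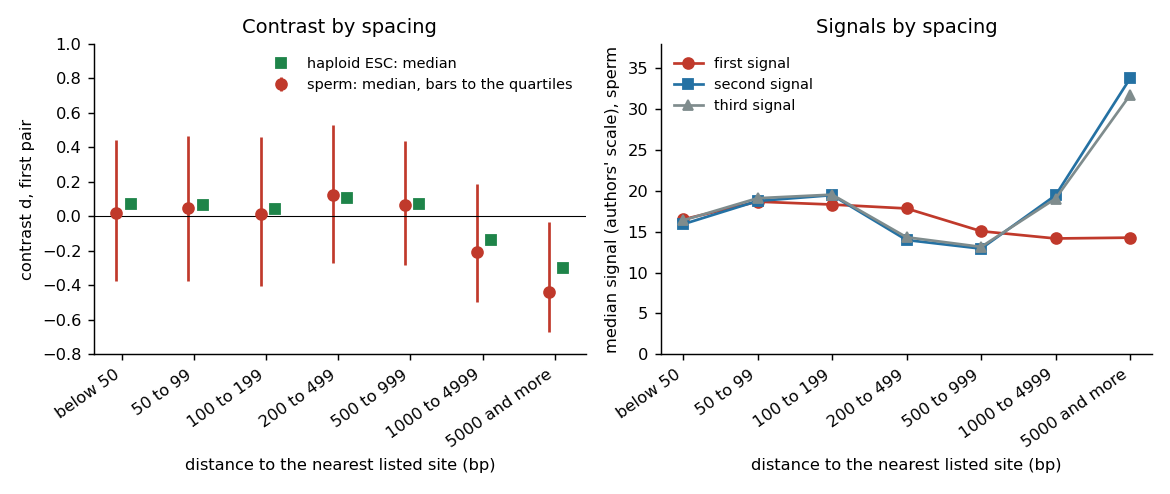
Left, median contrast d of sperm with bars to the quartiles, and median d of haploid ESC, by distance to the nearest listed site in bp. Right, the median first, the second and the third signal of sperm in the same classes. Median d falls from 0.123 at 200 to 500 bp to -0.436 at 5000 bp and more, where the second and the third signal are highest and the first is not.

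Haploid ESC had the same order in the wider classes, with a median d of 0.108 at 200 to 500 bp, 0.0702 at 500 to 1000 bp, -0.135 at 1000 to 5000 bp and -0.298 at 5000 bp and more. The span from the second last to the last of these classes was smaller than in sperm, and the difference between cell types was not tested. With equal sums the sperm medians were 0.00796, -0.0471, -0.313 and -0.525, in the same order. Below 50 bp the haploid ESC median of 0.0717 was above the 0.0219 of sperm.

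The number of listed sites within 500 bp gave a different picture from the nearest distance. Sites with none had a median d of -0.104, those with 1 had 0.0806, those with 2 had 0.0987 and those with 3 had 0.0502. The share with a first signal of 64 or more rose throughout, from 9.34% with no near site to 17.9%, 22.9% and 28.1% with 1, 2 and 3 near sites. The median second signal went from 14.7 with 1 near site to 16.3 with 2 and 20.5 with 3. With 4 or 5 near sites median d was 0.00562 and the share of high first signals 34.2%, and with 6 and more they were 0.0818 and 46.9% (1385 sites). The share of high first signals thus rose from class to class, while median d rose and fell.

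The 10 most frequent distances between consecutive sites formed groups of adjacent lengths (201 to 204, 134 and 135, 234 and 235 bp) and the single lengths 68 and 99 bp, and the sites at these distances had higher contrasts than those at distances within 10 bp. The most frequent was 234 bp, with 4413 pairs of consecutive sites. The sites of these pairs had a median d of 0.368, a median first signal of 26.2 and a median second signal of 12.8. Sites of the 20974 pairs at distances within 10 bp of it had a median d of 0.109 and medians of 20.6 and 16.9. At 99 bp, with 2216 pairs, median d was 0.254 against 0.00650 at distances within 10 bp. At 68 bp it was 0.137 against 0.0285, at 135 bp 0.143 against 0.00650, at 202 bp 0.129 against 0.0410, at 203 bp 0.124 against 0.0410, and at 235 bp 0.264 against 0.157. The second signal was lower at each of these frequent distances than beside them. For the grouped lengths, the distances within 10 bp include the other frequent lengths of the group. Their offsets therefore cannot be set against those at 68 and 99 bp. These distances were chosen by their frequency, after the data were seen. Whether the sites lie in repeated sequence was not tested.

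Neighbouring sites had similar contrasts up to about 1000 bp. Between consecutive sites the Spearman's rho of d was 0.473 below 50 bp, 0.540 at 50 to 100 bp (41683 pairs) and 0.551 at 100 to 200 bp (87853 pairs). It was 0.408 at 200 to 500 bp, 0.205 at 500 to 1000 bp and 0.107 at 1000 to 2000 bp, and between 0.0639 and 0.0693 at greater distances. These are descriptions over pairs of sites read in the same libraries.

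The first signal was more alike in neighbours than the second. Its rho between neighbours was 0.605, 0.639 and 0.616 in the classes below 200 bp, 0.5004 at 200 to 500 bp and 0.283 at 500 to 1000 bp. The second signal reached at most 0.218, at 100 to 200 bp, and the third signal at most 0.239 in the same class. Beyond 2000 bp the order turned, with 0.104 for the second signal and 0.0218 for the first at 2000 to 5000 bp. The contrast of the second pair had no such likeness, with a rho of 0.0217 or less in every class.

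In haploid ESC the likeness of d ended over a shorter distance. Its rho was 0.516 below 50 bp and 0.534 at 50 to 100 bp, close to the 0.473 and 0.540 of sperm, and then 0.294 at 200 to 500 bp and 0.116 at 500 to 1000 bp, where sperm had 0.408 and 0.205. The difference was not tested.

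**Figure D3:**
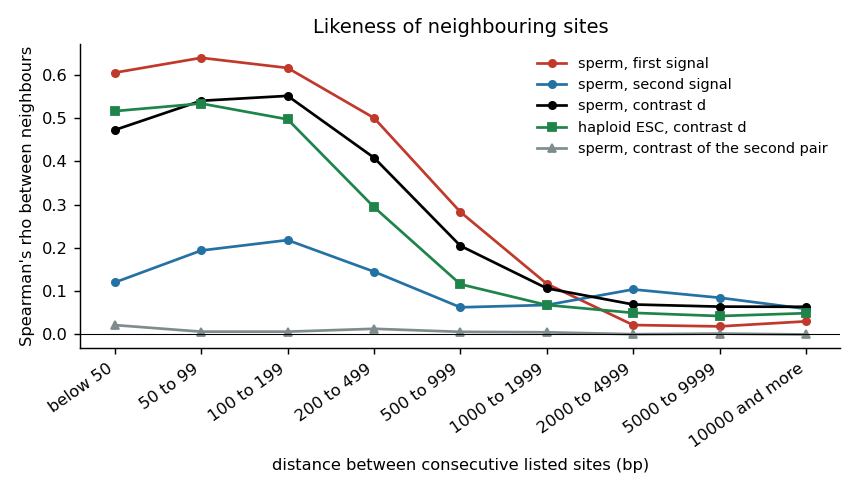
Spearman's rho between consecutive listed sites, by their distance in bp, for the first signal, the second signal and the contrast d of sperm, d of haploid ESC, and the contrast of the second sperm pair. The first signal and d are alike in neighbours below 200 bp and lose that likeness by 2000 bp, and the contrast of the second pair stays near 0 throughout.

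Some sites with a strong contrast lay in runs, while most did not. A run was at least 5 consecutive listed sites that all had d above 0.5, or all below -0.5, with no limit on the distance between them, a rule chosen after the data were seen. There were 5379 runs above 0.5, holding 32672 sites, 12.6% of the sites above 0.5, and 214 of these runs had 10 sites or more. There were 931 runs below -0.5, holding 5058 sites, 2.27% of the sites below -0.5, and 3 of them had 10 sites or more. The background shares of single sites were 20.7% and 17.7%. A run needs at least 5 such sites in succession, so numbers of runs would differ more than these shares even if sites were independent.

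The 2 kinds of run differed in length as well as number. Runs above 0.5 had a median length of 2956 bp (quartiles 1938 and 4752 bp). Runs below -0.5 had a median length of 15792 bp (quartiles 6979 and 25486 bp), and with sites at most 5000 bp apart only 353 of them were left, against 5123 runs above 0.5. With equal sums of the signals there were 3333 runs above and 2613 below, so the excess of runs above 0.5 was smaller on that scale. With the third signal in place of the second there were 5075 and 871.

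The sites of the runs above 0.5 had a median first signal of 94.2, a median second signal of 10.99 and the third signal had a median of 11.6. Both the second and the third signal lay below the medians of all sites, which were 16.3 and 16.4. The sites of the runs below -0.5 had a median first signal of 6.15, a median second signal of 40.7, and the third signal had 38.2. The third signal was not used to choose the runs, but it is not independent of that choice. It followed the second signal, which was used, with a Spearman's rho of 0.929 over all sites.

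The haploid ESC table, which played no part in choosing the runs either, had medians of the same sign and nearer to 0 at these sites, which had been chosen for extreme values in sperm. At the 31670 sites of runs above 0.5 that it also lists, its median d was 0.535 (quartiles 0.242 and 0.701), with 54.4% above 0.5 and 2.62% below -0.5, beside 16.1% and 13.4% of all its autosomal sites. Its median first signal was 46.0 and its median second signal 14.3. At 4886 sites of the runs below -0.5 its median d was -0.429 (quartiles -0.608 and -0.211), with 40.38% below -0.5 and 2.56% above 0.5. Haploid ESC had 2577 runs above 0.5 and 290 below -0.5 by the same rule, and with equal sums 723 above and 932 below, so that which kind was more frequent turned with the scaling. Whether this number differs from that of sperm beyond the spread between libraries was not tested.

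The 11 runs above 0.5 with 16 sites or more were chosen after their values were seen, and positions are given as the table gives them, without the name of their genome build. The run with the most sites lay at chr5:167576203-167589118, 12916 bp with 22 sites. Its first signal ranged from 29.1 to 133 and its second from 2.27 to 36.5, and d from 0.525 to 0.900. With the third signal d exceeded 0.5 at 22 of 22 sites. Haploid ESC listed 22 sites there, with a median d of 0.642, 17 of them above 0.5. The 19 sperm sites within 10 kb on either side had a median d of 0.445, with a first signal of 126 and a second of 31.8.

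**Figure D4:**
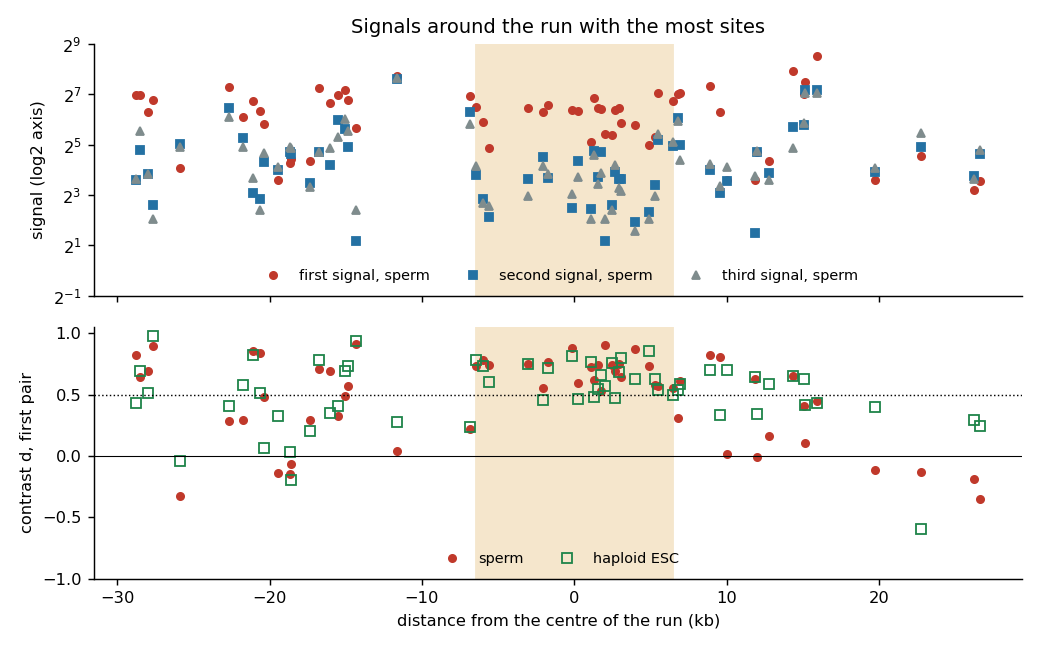
Signals of the 60 sperm sites (top, log2 axis) and contrast d of the sperm and haploid ESC sites (bottom) within 30 kb of the centre of the run with the most sites, by distance in kb. The shaded stretch is the run, and the dotted line marks a d of 0.5. Inside the run all 22 sperm sites lie above 0.5 and 17 of 22 haploid ESC sites do.

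A group of 4 runs had 21 sites each. The run at chr12:32865531-32885126 had a median first signal of 76.0 and second of 7.74, and 12 sites beside it had a median d of 0.134. The run at chr20:3317022-3332712 had medians of 93.4 and 10.9. The run at chr9:8184142-8196579 had medians of 86.3 and 15.3 and the run at chr4:29219524-29230773 had 77.6 and 10.6. The chromosome 4 run stood in wide surroundings of the same kind, since the 20 sites within 10 kb of it had a median d of 0.740.

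The run at chr7:119835521-119844984 had 20 sites, with a median first signal of 88.9 and second of 13.6. There were 3 runs of 18 sites. At chr1:126942179-126962218 the sites beside the run had a median d of -0.00997, against 0.768 inside it. At chr7:166228839-166242492 they had a median d of 0.410. The run at chr4:58296834-58319978, 23145 bp long, was the one of these 11 with the lowest haploid ESC contrast. Its sperm sites had a median first signal of 81.8, a median second of 6.64 and a median d of 0.814. The 15 haploid ESC sites there had a first signal of 27.5, a second of 15.9 and a median d of 0.165, and 3 of them exceeded 0.5.

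The remaining 2 of the 11 lay at chr5:104802151-104809664, with 17 sites in 7514 bp, and at chr19:60840279-60848490, with 16 sites in 8212 bp. Over the 11 runs the median first signal lay between 76.0 and 93.4 and the median second between 6.64 and 15.3. With the third signal 202 of their 213 sites kept a d above 0.5. In haploid ESC 128 of 206 sites there exceeded 0.5, and the median d exceeded 0.5 in 7 of the 11.

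The 7 runs below -0.5 with 9 sites or more, also chosen after their values were seen, had median first signals from 3.10 to 11.7 and median second signals from 23.9 to 55.9. The one with the most sites, 12 in 59203 bp, lay at chr2:175610855-175670057. Its first signal ranged from 3.11 to 42.1 and its second from 27.3 to 158, with d from -0.858 to -0.504. With the third signal 9 of the 12 stayed below -0.5, and 11 haploid ESC sites there had a median d of -0.430.

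The 2 most compact of these runs had 11 sites each. At chr15:5021750-5032339 the median first signal was 3.10, in its lowest band, and the median second was 25.2. At chr7:138963515-138973647 the medians were 6.13 and 43.1, and 8 of 11 sites stayed below -0.5 with the third signal. Over the 7 runs 53 of 70 sites stayed below -0.5 with the third signal. In haploid ESC the median d over these runs lay between -0.515 and -0.182, and it was below -0.5 in 1 of the 7.

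On a scale of 1 Mb the contrast varied from region to region. Of 2696 windows with sites, 2682 had at least 50 and were used, with 52 to 1929 sites and a median of 389. Window medians of d ranged from -0.374 to 0.551, with a 5th percentile of -0.235 and a 95th of 0.172, and 870 windows (32.4%) lay above 0, or 277 with equal sums. The medians followed those of haploid ESC with a Spearman's rho of 0.710 and a Pearson's r of 0.718 over windows, and the number of sites with a rho of 0.461. Haploid ESC windows spanned less, from -0.262 to 0.383.

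The window with the highest median lay at 27 to 28 Mb of chromosome 4, with 622 sites, a median first signal of 56.4, a median second of 14.1 and a median d of 0.551. With the third signal its median d was 0.549 and its haploid ESC median 0.350. On the same chromosome the windows at 29 to 30 Mb (488 sites, 0.515) and 26 to 27 Mb (558 sites, 0.429) were also among the 10 highest, with haploid ESC medians of 0.262 and 0.314. This stretch holds the chromosome 4 run of 21 sites described above. Chromosome 19 had 2 of the 10, at 23 to 24 Mb (261 sites, 0.423, haploid ESC 0.124) and at 12 to 13 Mb (987 sites, 0.400, haploid ESC 0.286). Chromosome 1 had the window at 128 to 129 Mb (526 sites, 0.402, haploid ESC 0.285).

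The other 4 of the 10 highest windows had fewer than 200 sites, and their haploid ESC medians lay between -0.0520 and 0.0756. At 184 to 185 Mb of chromosome 5, with 53 sites, median d was 0.550 in sperm and 0.0756 in haploid ESC, with median first signals of 106 and 40.1 and second signals of 28.7 and 27.3. At 34 to 35 Mb of chromosome 3, with 92 sites, the contrasts were 0.508 and -0.0195 and the first signals 79.5 and 28.5. At 150 to 151 Mb of chromosome 8, with 69 sites, they were 0.449 and -0.0520, and at 43 to 44 Mb of chromosome 6, with 162 sites, 0.442 and 0.0406. In the chromosome 5 and chromosome 3 windows the contrast from summed signals was 0.143 and 0.132, far below the medians over sites. No test of the difference between cell types is possible with 1 library each.

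The 10 lowest windows were alike. Their median first signal lay near 14, between 11.9 and 14.7, and their median second signal between 22.1 and 28.5. They were at 32 to 33 Mb (-0.374) and 96 to 97 Mb (-0.322) of chromosome 8, at 57 to 58 Mb (-0.367) and 59 to 60 Mb (-0.361) of chromosome 13, at 66 to 67 Mb (-0.363) and 125 to 126 Mb (-0.358) of chromosome 7, and at 207 to 208 Mb of chromosome 1 (-0.365). The rest were at 18 to 19 Mb of chromosome 3 (-0.345), 62 to 63 Mb of chromosome 20 (-0.324) and 77 to 78 Mb of chromosome 2 (-0.322). Each also had a negative median in haploid ESC, between -0.242 and -0.0877, and each held between 181 and 303 sites.

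Dense clusters were rare among the listed sites. No cluster of 10 or more sites with gaps of at most 100 bp was found. With 5 sites or more there were 41 clusters holding 212 sites, and their medians of d fell to both sides. There were 19 clusters (46.3%) with a median above 0.5 and 9 (22.0%) below -0.5, beside 20.7% and 17.7% of single sites, and the median over clusters was 0.423. The cluster with the most sites lay at chr4:159444408-159444661, with 7 sites in 254 bp, a median first signal of 124, a median second of 22.8 and a median d of 0.648. At gaps of up to 200 bp there were 1141 clusters of 5 sites or more, with a median over clusters of -0.0690. Of these, 292 (25.6%) lay above 0.5 and 228 (19.98%) below -0.5, beside 20.7% and 17.7% of single sites. For both gaps the cluster values are medians over 5 sites or more, so their shares and those of single sites are unlike measures.

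Chromosome 19 stood above the other autosomes. Its median d was 0.210 (48421 sites, 95% interval 0.206 to 0.218), and the next, chromosome 16, had 0.0737. The others lay between -0.0703 (chromosome 12) and 0.0161 (chromosome 20). Chromosome 19 had the highest median first signal, 19.3 against 15.0 to 16.8 elsewhere, and the lowest median second signal, 12.8 against 13.5 to 18.7. Of its sites 30.9% had d above 0.5 and 9.93% below -0.5, beside 20.7% and 17.7% of all sites. With equal sums its median was 0.0965 and all the other 19 lay below 0.

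Runs were unevenly spread in the same way. Chromosome 19 had 572 runs above 0.5, 118 per 10000 listed sites, against 31.9 to 59.9 on the others. It had 7 runs below -0.5, 1.45 per 10000 sites, against 3.28 to 11.1 on the others.

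Chromosome medians followed the density of listed sites. Over the 20 chromosomes Pearson's r between median d and sites per Mb was 0.843 and Spearman's rho 0.890, and without chromosome 19 they were 0.860 and 0.872. They followed the median second signal inversely, with r of -0.894 and rho of -0.934, and showed no such relation to the median first signal without chromosome 19 (r of -0.1996). All points share the same libraries, and d contains both signals.

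Chromosome 19 was also the highest at a fixed spacing. Among sites 200 to 500 bp from their nearest neighbour its median d was 0.268, against 0.0706 to 0.176 on the others. Among sites 1000 to 5000 bp from it chromosome 19 had 0.110, and the others had -0.249 to -0.0727. Chromosome 10 had nearly the site density of chromosome 16, 703 and 716 per Mb against 755 on chromosome 19, with a median d of 0.00698.

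**Figure D5:**
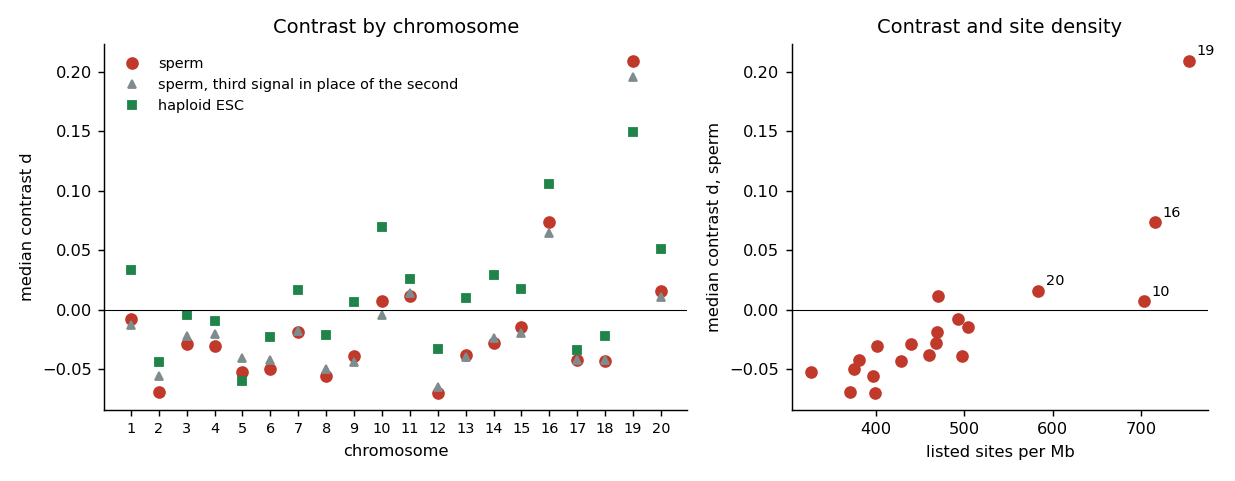
Left, median contrast d of each autosome for sperm, for sperm with the third signal in place of the second, and for haploid ESC. Right, sperm median d against listed sites per Mb, with chromosomes 10, 16, 19 and 20 marked. Chromosome 19 has the highest median in all 3 series, 0.210, 0.196 and 0.150.

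Sites near chromosome ends had a higher contrast than sites far inside, by a small amount. Within 1 Mb of the first or last listed site the median d was 0.0769 (40582 sites), at 1 to 2 Mb 0.0267, at 2 to 5 Mb 0.00306, at 5 to 10 Mb 0.00637, and 10 Mb and more away -0.0278. The end class was higher than the inner class on 18 of 20 chromosomes, with differences from -0.0271 on chromosome 4 to 0.267 on chromosome 2. The median first signal was 18.99 near the ends and 15.3 inside, and the second 15.97 and 16.6. At a spacing of 200 to 500 bp the median d was 0.165 near the ends and 0.126 inside, and at 1000 to 5000 bp it was -0.00667 and -0.212. From summed signals the difference was 0.0303, against 0.105 from medians.

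Beside haploid ESC, the sperm contrast was more spread. The median d of haploid ESC was 0.0119 with an interquartile range of 0.679, against 0.795 in sperm, and 16.1% of its sites lay above 0.5 and 13.4% below -0.5. The same columns of its table were used, and no label shows that they hold the same digests. At the 1215827 autosomal sites listed in both tables the Spearman's rho of d was 0.543, of the first signal 0.561 and of the second signal 0.757. The second signal was thus more alike in the 2 cell types than the first. The lowest first signals lay mostly at log2 1.5 to 1.75 in sperm (119620 sites) and at 0.5 to 0.75 in haploid ESC (50690 sites). Low first signals were thus coarser in sperm. How far this bears on the spread of d and on the rho of the first signal was not tested.

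Strong contrasts in sperm were rarely opposite in haploid ESC. Of the 249229 shared sites above 0.5 in sperm, 41.6% were above 0.5 in haploid ESC and 3.28% below -0.5, beside 11.6% and 9.05% of the sites between the limits in sperm. Of the 215063 shared sites below -0.5 in sperm, 34.5% were below -0.5 in haploid ESC and 3.01% above 0.5. The limit of 64 for the first signal, taken from sperm, was reached in part by the same sites in haploid ESC. Of the shared sites with a sperm first signal of 64 or more, 40.3% reached 64 in haploid ESC, against 5.13% of the rest. Their median haploid ESC first signal was 44.4, against 124 in sperm, while the second signals were 21.8 and 21.4.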

How the data were processed

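Single-end reads of 50 bp came from a HiSeq2000, on DNA prepared with a QIAamp kit, per the labels' protocols. The authors deposited 1 table per cell type, with 10 columns and no header. Columns 3, 4 and 8 hold the authors' signal per site, on a scale that is not described. Its aligner, counting, filters, scaling and read depth were not given in the sources used here, and the precision they allow is unknown. The submitters' processing notes name hg19, but the tables name macaque chromosomes, so the build was treated as unknown, no gene is named and no sequence is printed. The 4 columns read as p-values and adjusted p-values were not used, and 1 other column of signals, the third of haploid ESC, was not used either.

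The contrast, its medians, shares (95% Wilson intervals), intervals of medians from order statistics and correlations were computed with pandas 2.3.3, numpy 2.4.6 and scipy 1.17.1 in Python 3.11.15. No site was filtered by its signal. Sites were joined between tables on chromosome and position. The rule for named regions was the 10 highest and 10 lowest windows of 1 Mb with at least 50 sites and the 10 dense clusters with the most sites, at least 10 sites with gaps of at most 100 bp. No cluster met it. The search for runs was tested on simulated data, where it recovered the planted runs.

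The sites and classes were chosen with earlier results of these data known. Runs, the limit of 64, frequent distances, clusters of 5 sites and the use of the third signal were chosen after seeing the data. Alternatives were a minimum total signal, equal sums, a minimum spacing, summed signals, a log2 ratio with a pseudocount of 1, other windows and clusters, and chromosome X.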

Additional observations from a re-analysis of the deposited data

Results flagged for a closer look

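The median contrast had opposite signs in the 2 cell types over all 20 autosomes, -0.0126 in sperm and 0.0119 in haploid ESC. It also did on 6 single autosomes. On chromosome 1 it was -0.00801 in sperm and 0.0334 in haploid ESC, on chromosome 7 -0.0187 and 0.0170, and on chromosome 9 -0.0387 and 0.00622. On chromosome 13 it was -0.0379 and 0.00970, on chromosome 14 -0.0280 and 0.0290, and on chromosome 15 -0.0147 and 0.0177. On chromosome X, which is outside the sites described above, the signs were the other way round, with 0.161 in sperm (42476 sites) and -0.0514 in haploid ESC (48998 sites). The median first and second signals on X were 12.20 and 9.45 in sperm and 17.8 and 19.5 in haploid ESC. None of these differences was tested, since each digest has 1 library. The autosomal signs depend on the scaling of each table: with equal sums the medians over all autosomes were -0.128 and -0.0937, both below 0, and 19 of 20 chromosomes in sperm and 18 of 20 in haploid ESC lay below 0. With the same factors the X medians were 0.0465 in sperm and -0.156 in haploid ESC, still of opposite sign.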

How the results depend on the processing

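Of 53 values from alternative settings, 18 stayed within the counting interval of the value reported or, for counts, within 1.5 times of it, 24 moved beyond it and 2 changed sign. The other 9, 8 for windows with no interval and a log2 ratio in another unit, were not set against an interval. The cause of these changes was not tested. The intervals are narrow, so small moves pass them. Some of the 18 could not have changed. Scaling to equal sums keeps the order of d, so both correlations were identical. Dense clusters depend on positions only, so equal sums, fewer sites or smaller gaps could not raise their number from 0. A minimum spacing of 50 bp leaves the wider spacing classes as they were. The sign of the median contrast over sites (-0.0126) was the one result to turn: it was 0.0779 at sites with at least the median total signal and 0.115 from summed signals. It was -0.128 with equal sums, -0.0142 at sites at least 50 bp apart, -0.0156 with the third signal and -0.00953 with X added, and the median log2 ratio was -0.033. With a total of at least the median, chromosome 19 exceeded the median of the other autosomes by 0.375 (0.240 reported), the most isolated sites differed from those at 200 to 500 bp by -0.810 (-0.560 reported), windows spread over 0.666 from the 5th to the 95th percentile (0.407 reported), rho of neighbours at 100 to 200 bp was 0.643 (0.551 reported) and rho with haploid ESC was 0.705 (0.543 reported). From summed signals chromosome 19 exceeded the others by 0.214, isolated sites differed by -0.592, ends by 0.0303 (0.105 reported) and windows spread over 0.385. With equal sums isolated sites differed by -0.533 and windows spread over 0.399, and there were 3333 runs above 0.5 and 2613 below -0.5. At sites at least 50 bp apart ends differed by 0.116, windows spread over 0.410 and rho of neighbours was 0.546. With the third signal, added after the data were seen, the values were 0.220, -0.526 and 0.0760 for chromosome 19, isolated sites and ends, 0.396 for windows, and 0.556 and 0.545 for the 2 correlations. Windows of 500 kb spread over 0.471, of 2 Mb over 0.359, and those with at least 200 sites over 0.402. Requiring 200 sites kept 6 of the 10 highest windows and 8 of the 10 lowest. Dense clusters numbered 41 with at least 5 sites and 1 with gaps of up to 200 bp. With sites at most 5000 bp apart 353 runs below -0.5 were left. The read depth is unknown, and low first signals lie in few bands.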

Other observations

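Very strong sites did not share the contrast of the 2 classes with the highest totals. The 389 sites with a total signal above 1000, 0.0310% of all, had a median first signal of 619, a median second of 1021 and, for the third signal, a median of 1008. Their median d was -0.129 with quartiles of -0.630 and 0.0965, and 1.29% of them exceeded 0.5 while 31.4% lay below -0.5, beside 20.7% and 17.7% of all sites.

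Sites listed in sperm and not in haploid ESC numbered 39077, 3.11% of the autosomal sites. Both of their signals were low, with a median first signal of 6.20 and a median second of 8.29, against 16.4 and 16.7 at shared sites. Their median d was 0.0109, against -0.0132 at shared sites.

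Another 3 frequent distances had smaller offsets, beside distances within 10 bp that include other frequent lengths of their group. At 201 bp median d was 0.0957 against 0.0489 at distances within 10 bp, at 134 bp 0.0838 against 0.0200, and at 204 bp 0.0687 against 0.0514.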
